A study of Homo sapiens with 9 samples.

Results

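The group IV cytosolic phospholipases A2 are a family of intracellular lipases, and 5 of their genes, PLA2G4A, PLA2G4C, PLA2G4D, PLA2G4E and PLA2G4F, are described here, out of 24672 genes in the tables. The genes were chosen by family name, with earlier results of these data known. Each was held by 1 row in every table. They were measured by RNA sequencing in EPC2 cells, a line of human esophageal epithelium that telomerase reverse transcriptase keeps dividing. All cells were kept in keratinocyte serum-free medium with 1 ng/mL epidermal growth factor, 50 ug/mL bovine pituitary extract, penicillin and streptomycin. One group of 3 libraries came from cells with a non-silencing control (NSC) that had been differentiated at an air-liquid interface (ALI), called ALI control below. A second group of 3 came from SPINK7-silenced cells that had been differentiated alike, called ALI silenced. The last 3 libraries came from undifferentiated NSC cells in a monolayer. For the ALI groups, calcium was 0.09 mM until confluence and 1.8 mM from day 2, air exposure began on day 7, and the harvest was on day 14, per the labels' protocols. The tables of these groups carry day 7 in their names, and whether that counts from seeding or from air exposure is not stated. Those names also number some ALI libraries in another way than the labels, and the labels' numbers are used here. The labels name 1 silenced population and not the construct, so an effect of losing SPINK7 and an effect particular to that population cannot be told apart. Whether replicate libraries stem from separate cultures is not stated either, so the spread that p-values measure may be technical.

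Cytosolic phospholipases A2 cut a fatty acid from membrane phospholipids and leave a lysophospholipid. PLA2G4A encodes the alpha enzyme, the best known of them, which moves to membranes when calcium rises and releases the arachidonic acid from which prostaglandins and leukotrienes are made. PLA2G4C encodes the gamma enzyme, which lacks the calcium-binding domain of its relatives. PLA2G4D (delta), PLA2G4E (epsilon) and PLA2G4F (zeta) lie next to each other on chromosome 15, with PLA2G4B (beta) on the same chromosome beyond other genes. The epsilon enzyme is a calcium-dependent N-acyltransferase that makes N-acyl-phosphatidylethanolamines, the precursors of N-acylethanolamines. Squamous epithelium uses lipids both as signals and as building material of its barrier.

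In the deposited coordinates (hg19), PLA2G4A was on chromosome 1 at 186798032 to 186958113, on the plus strand. PLA2G4C was on chromosome 19 at 48551100 to 48614109, on the minus strand. On the minus strand of chromosome 15 followed PLA2G4E (42273780 to 42342901), PLA2G4D (42359881 to 42386752) and PLA2G4F (42433332 to 42448839). The gap between PLA2G4E and PLA2G4D was 17.0 kb and that between PLA2G4D and PLA2G4F was 46.6 kb. PLA2G4B (42131011 to 42140346) was on the plus strand, 133.4 kb from PLA2G4E.

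The 3 neighbours PLA2G4D, PLA2G4E and PLA2G4F were all higher in ALI control than in monolayer libraries, and PLA2G4D alone of them passed the test under silencing, so the 250 bases before their RefSeq start sites are shown, 5′ to 3′ on the gene's strand. They are from RefSeq (GRCh38.p14, minus strand): chr15:42094563-42094812 for PLA2G4D, chr15:42050704-42050953 for PLA2G4E and chr15:42156637-42156886 for PLA2G4F. Capitals mark the letters of a searched motif.
PLA2G4D: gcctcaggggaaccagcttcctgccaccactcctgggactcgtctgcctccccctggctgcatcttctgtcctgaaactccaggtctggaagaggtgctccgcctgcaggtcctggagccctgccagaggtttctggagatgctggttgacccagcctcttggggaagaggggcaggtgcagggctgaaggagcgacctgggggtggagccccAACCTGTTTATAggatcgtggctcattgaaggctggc
PLA2G4E: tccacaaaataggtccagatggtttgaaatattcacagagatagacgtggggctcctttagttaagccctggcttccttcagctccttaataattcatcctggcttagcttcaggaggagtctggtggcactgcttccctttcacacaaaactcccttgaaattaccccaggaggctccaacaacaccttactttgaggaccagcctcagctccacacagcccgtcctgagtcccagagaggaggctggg
PLA2G4F: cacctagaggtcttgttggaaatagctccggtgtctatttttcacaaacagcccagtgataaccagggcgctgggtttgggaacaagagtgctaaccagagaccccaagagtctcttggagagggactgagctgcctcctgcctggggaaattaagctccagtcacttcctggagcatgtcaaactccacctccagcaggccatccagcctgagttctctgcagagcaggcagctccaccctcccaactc
A set of 4 motifs was searched on both strands. The AP-1 letters TGANTCA occurred in 6.57% of 35116 promoter windows of this length. The grainyhead-like letters AACCNGTT occurred in 1.49% of them. The TATA box letters TATAAA occurred in 10.7%. The GC box letters GGGCGG occurred in 42.6%. The PLA2G4D window held AACCTGTT from 37 to 30 bases before the start, overlapped by the TATA box letters read on the opposite strand from 31 to 26 bases before it. The windows of PLA2G4E, PLA2G4F and PLA2G4A held none of the 4. The PLA2G4D window had a GC content of 62.4%, against 50.8% for PLA2G4E, 54.8% for PLA2G4F and 38.8% for PLA2G4A. PLA2G4C had no entry. A match describes letters and not a bound site.

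The libraries held between 7641960 and 14009746 counts. Levels below are CPM, counts scaled to a common library size after TMM normalization, as mean ± SD over n = 3 libraries unless given per library. SPINK7 stood at 229, 261 and 225 CPM in ALI control libraries 1 to 3 and at 20.9, 38.6 and 32.7 CPM in ALI silenced libraries. These groups did not overlap, and the level fell by 2.95 on the log2 scale (adjusted p = 0.00246 and SE 0.30, edgeR quasi-likelihood test with Benjamini-Hochberg adjustment). The summed level of 8 suprabasal squamous markers, such as KRT4, KRT10 and IVL, ranged from 6549 to 14000.2 CPM in ALI control, from 1875 to 3484 CPM in ALI silenced and from 23.7 to 33.4 CPM in monolayer libraries. The basal list, with KRT5 and KRT14, ranged from 15957 to 42021 CPM, from 24455 to 50349.5 CPM and from 26346 to 27405 CPM in the same order. The simple epithelium list, with KRT8 and KRT18, ranged from 296 to 796 CPM, from 1127 to 1896 CPM and from 3003 to 3383 CPM. The leukocyte list was at 53.2 to 70.5 CPM, 67.1 to 95.3 CPM and 16.3 to 29.3 CPM, so that both ALI groups were above the monolayers. Of its 7 markers 2 passed the low-count filter, and the defining markers PTPRC and CPA3 were at 0 counts in every group. The fibroblast list was at 12.2 to 49.2 CPM, 20.7 to 45.6 CPM and 50.1 to 186 CPM, with LUM at 0 counts throughout. The endothelial list was at 3.03 to 9.62 CPM, 1.40 to 2.34 CPM and 0.304 to 0.567 CPM. Of its 4 markers 1 passed the low-count filter. CDH5 was at 0 counts in ALI control, and PECAM1 and KDR were at 0 counts in ALI silenced libraries. The melanocyte list was at most 5.30 CPM, with TYR and DCT at 0 counts. Of the suprabasal markers, KRT1 was at a mean of 2773 CPM in ALI control and 66.8 in ALI silenced libraries. KRT10 was at 3386 and 154 CPM, and KRT4 at 537 and 136 CPM. The ALI groups overlapped for IVL and KRT13, which did not pass under silencing (adjusted p = 0.331 and 0.728, edgeR quasi-likelihood test). ALI control library 2 had the lowest suprabasal and basal sums of its group, and 6.79% of its counts were in ribosomal protein genes, against 2.99 to 4.77% elsewhere. The level of the proliferation marker MKI67 (chosen with its values known) was 0.757 and 0.893 CPM in the ALI libraries numbered 2 and at 39.6 to 106 CPM in the other 4 ALI libraries. The part of these differences in the results below was not tested beyond leaving the libraries out.

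Differentiation at the ALI was accompanied by a change in which family members the cells transcribed. Raised calcium, air exposure and culture time all belong to the ALI protocol, and no calcium level or harvest day was given for the monolayers. Their effects cannot be told apart from differentiation in this comparison. PLA2G4A, PLA2G4D, PLA2G4E and PLA2G4F were higher in ALI control than in monolayer libraries, and PLA2G4C was lower. All 5 passed the test with an adjusted p under 0.05. Of 12806 genes tested, 20.3% were called higher and 20.2% lower in this comparison. PLA2G4C passed the low-count filter only through the monolayer group, PLA2G4D only through ALI control, and PLA2G4E and PLA2G4F only through the ALI groups, so the number of members called is not a measure of how often such genes change. In bulk RNA, fewer cells of a type and less RNA per cell cannot be told apart.

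**Figure D1:**
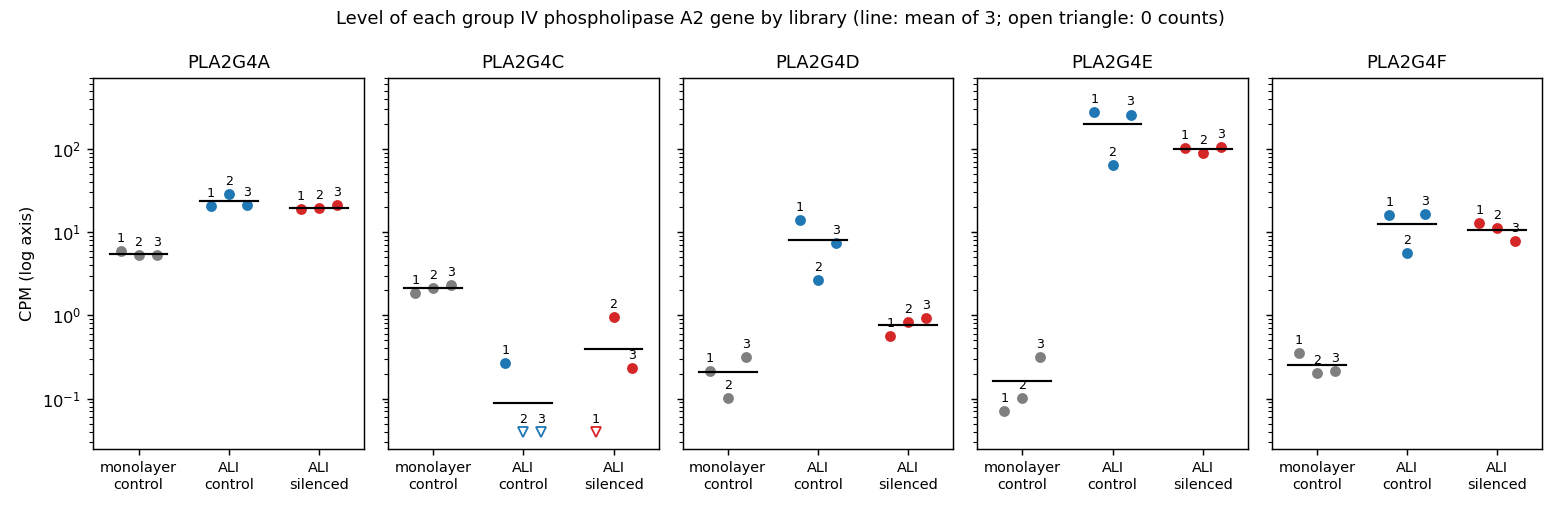
Levels of the 5 genes in each library, in CPM on a log axis, in monolayer control, ALI control and ALI silenced libraries. Numbers are library numbers, lines are means of 3 libraries and open triangles are 0 counts. PLA2G4E is between 64.5 and 274 CPM in ALI control libraries and at most 0.319 CPM in monolayers.

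PLA2G4A, the alpha enzyme, was present in every library. It was at 5.88, 5.36 and 5.32 CPM in monolayer libraries 1 to 3 and at 20.6, 29.0 and 21.1 CPM in ALI control libraries. The groups did not overlap, and library 2 was the highest of the ALI control group. The level rose 4.27-fold between the means, a log2 fold change of 2.09 (95% interval 1.57 to 2.62, adjusted p = 5.89e-05, edgeR quasi-likelihood test with Benjamini-Hochberg adjustment).

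PLA2G4E, the epsilon N-acyltransferase, had the largest change of the 5. It had 1, 1 and 3 counts in the monolayer libraries, or 0.0708, 0.101 and 0.319 CPM. In ALI control libraries 1 to 3 it was at 274, 64.5 and 258 CPM. Every ALI control library was far above every monolayer, and library 2 was the lowest of its group. The ratio of summed counts, scaled for library size, was 1344 (4999 against 5 counts, exact interval 575 to 4140, counting error only). The log2 fold change was 10.25 (SE 0.75, adjusted p = 8.10e-06, edgeR quasi-likelihood test).

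PLA2G4F, the zeta enzyme, had 5, 2 and 2 counts in the monolayer libraries and stood at 0.354, 0.202 and 0.213 CPM. Its ALI control levels were 16.1, 5.55 and 16.3 CPM. The groups did not overlap, and library 2 was again the lowest of the ALI control group. Its ratio of summed counts was 47.5 (exact interval 24.7 to 105), and its log2 fold change was 5.51 (SE 0.54, adjusted p = 4.77e-05, edgeR quasi-likelihood test).

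PLA2G4D, the delta enzyme known from keratinocytes, had 3, 1 and 3 counts in the monolayers, or 0.212, 0.101 and 0.319 CPM. It had 104, 21 and 69 counts in ALI control libraries 1 to 3, or 13.9, 2.65 and 7.30 CPM. Library 1 was highest and library 2 lowest, and the groups did not overlap. The ratio of summed counts was 37.2 (exact interval 17.7 to 93.9), and the log2 fold change was 5.16 (SE 0.70, adjusted p = 0.000360, edgeR quasi-likelihood test).

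PLA2G4C, the gamma enzyme, moved the other way and was scarce everywhere. It had 26, 21 and 22 counts in the monolayer libraries, or 1.84, 2.12 and 2.34 CPM. ALI control library 1 had 2 counts, and libraries 2 and 3 had none, where 3 counts would have been 0.378 and 0.317 CPM. The monolayers were above every ALI control library. Monolayer summed counts were 25.7 times those of ALI control after scaling (69 against 2 counts, exact interval 6.84 to 216), and the log2 fold change was -4.49 (SE 1.14, adjusted p = 0.0113, edgeR quasi-likelihood test).

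PLA2G4B could not be measured apart from its neighbour, since its row overlapped a row named for JMJD7 and a JMJD7-PLA2G4B readthrough, and reads may be split between them. The sum of both rows was 63.4, 62.8 and 77.3 CPM in ALI control, 31.5, 47.4 and 32.5 CPM in ALI silenced and 19.3, 8.60 and 12.1 CPM in monolayer libraries. The sums of the 3 groups did not overlap, and no test was run on the sum. The PLA2G4B row alone had a log2 fold change of 4.97 in ALI control against monolayer (adjusted p = 0.00369, edgeR quasi-likelihood test) and of -1.61 in ALI silenced against ALI control (adjusted p = 0.610). The JMJD7 row had one of -0.32 in ALI silenced against ALI control (adjusted p = 0.798, edgeR quasi-likelihood test), with overlapping groups.

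Levels of different genes were compared per transcript length, in the authors' RPKM. In monolayers the order was PLA2G4A (1.69 ± 0.0851 RPKM), PLA2G4C (0.791 ± 0.0887), PLA2G4F (0.0912 ± 0.0168), PLA2G4D (0.0530 ± 0.0276) and PLA2G4E (0.0309 ± 0.0257). The last 3 were close to the level of a few reads, and the ranges of PLA2G4D overlapped those of PLA2G4F and PLA2G4E. In ALI control libraries the order was PLA2G4E (34.0 ± 21.0 RPKM), PLA2G4A (6.35 ± 0.762), PLA2G4F (2.99 ± 1.56), PLA2G4D (1.81 ± 1.34) and PLA2G4C (0.0586 ± 0.102). PLA2G4E was above PLA2G4A, and PLA2G4F above PLA2G4D, in each ALI control library, although the ranges of PLA2G4F and PLA2G4D overlapped. In ALI silenced libraries the order was the same, with PLA2G4E at 17.8 ± 1.31, PLA2G4A at 5.81 ± 0.374, PLA2G4F at 2.67 ± 0.610, PLA2G4D at 0.187 ± 0.0480 and PLA2G4C at 0.168 ± 0.197 RPKM. The last 2 overlapped there.

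The shares of the 5 genes changed with these levels. PLA2G4A held 67.0, 64.4 and 59.8% of the summed RPKM of the 5 genes in monolayer libraries 1 to 3, and PLA2G4C held 26.4, 30.7 and 32.1%. In ALI control libraries PLA2G4E held 78.4, 52.3 and 79.5%, and PLA2G4A 9.62, 38.4 and 10.6%. PLA2G4E thus replaced PLA2G4A as the leading member in every ALI control library, by the smallest margin in library 2. The summed level rose from 2.67, 2.55 and 2.75 RPKM in monolayers to 60.5, 18.8 and 56.4 RPKM in ALI control libraries.

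**Figure D2:**
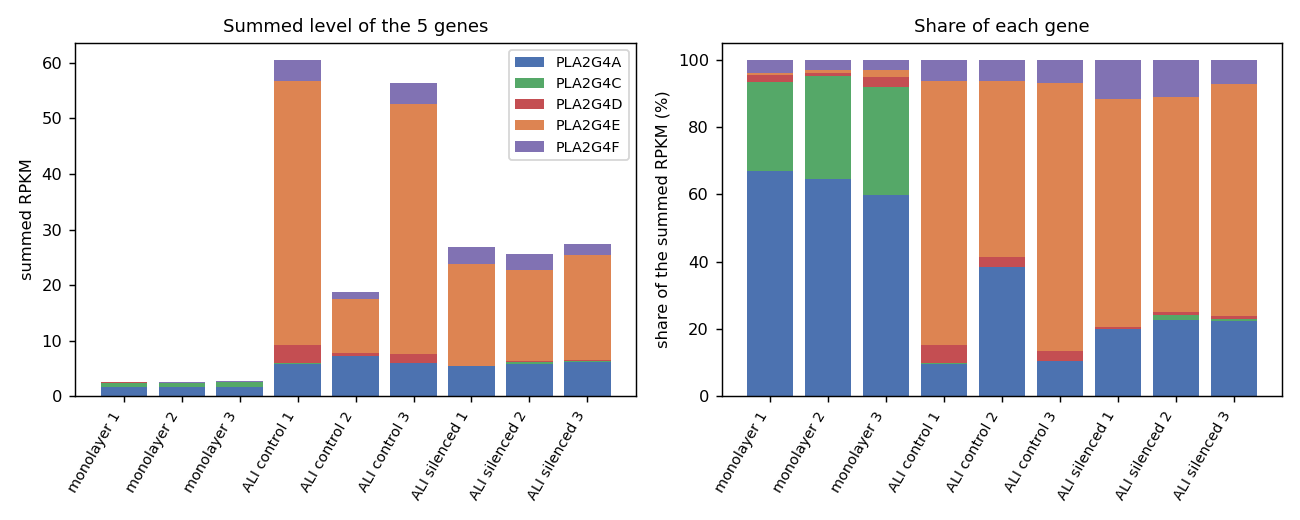
Summed RPKM of the 5 genes in each library (left) and the share of each gene in that sum in percent (right). Each bar is 1 library and colours are genes. PLA2G4A is the largest share in the 3 monolayers and PLA2G4E the largest in the 6 ALI libraries.

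Silencing of SPINK7 was followed by a lower PLA2G4D level, while no other member passed the test. PLA2G4D passed the low-count filter only through ALI control, the group where it was high. A call in the other direction was therefore hardly possible. Of all genes tested, 0.703% were called lower and 0.226% higher in ALI silenced against ALI control libraries. PLA2G4D was at 0.561, 0.824 and 0.937 CPM in ALI silenced libraries 1 to 3 (6, 12 and 8 counts), against the 13.9, 2.65 and 7.30 CPM of ALI control. All 3 silenced libraries were below all 3 control libraries. The mean level in silenced libraries was 9.72% of that in controls, and the level fell by 3.35 on the log2 scale (SE of 0.60, 95% interval -4.81 to -1.88, adjusted p = 0.0330, edgeR quasi-likelihood test with Benjamini-Hochberg adjustment). This call was kept in 7 of 20 alternative analyses, whose adjusted p ran from 4.71e-05 to 0.170, and the direction was the same in all 20. It was lost on leaving out any single library other than ALI control 2, without which the log2 fold change was -3.76 (adjusted p = 0.00218). Where leaving out 1 library lost the call, the log2 fold change was still between -3.49 and -2.68. The suprabasal and endothelial marker sums were also lower, and the simple epithelium sum higher, in all silenced than in all control libraries. The endothelial sum was low throughout, and 1 of its 4 markers passed the low-count filter. The part of these sums in this result was not tested.

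PLA2G4E was at 102, 89.1 and 105 CPM in ALI silenced libraries, within the range of the ALI control group, whose library 2 was at 64.5 CPM. The silenced libraries were close together, and the control group spread more widely. The mean was 49.6% of the control mean, with a log2 fold change of -1.01 (95% interval -2.10 to 0.08, adjusted p = 0.528, edgeR quasi-likelihood test). Without ALI control library 2 the log2 fold change was -1.43 and passed the test (adjusted p = 0.00531). Without both ALI libraries numbered 2 it was -1.36 (adjusted p = 0.000752). The other 18 of 20 alternatives did not call it, and their adjusted p reached 0.979.

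PLA2G4F was at 12.8, 11.2 and 7.84 CPM and PLA2G4A at 18.7, 19.4 and 20.95 CPM in ALI silenced libraries. Both groups overlapped those of ALI control. The means were 84.0% and 83.5% of control. The log2 fold change of PLA2G4F was -0.25 (95% interval -1.20 to 0.70, adjusted p = 0.861, edgeR quasi-likelihood test), and that of PLA2G4A was -0.26 (95% interval -0.76 to 0.23, adjusted p = 0.734).

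PLA2G4C had 0, 14 and 2 counts in ALI silenced libraries, or 0, 0.962 and 0.234 CPM, and 14 of the 16 counts came from library 2. The groups overlapped, and the log2 fold change was 2.26 (95% interval -0.96 to 5.47, adjusted p = 0.663, edgeR quasi-likelihood test). Without both ALI libraries numbered 2 its sign turned, to -0.17 (adjusted p = 0.980).

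**Figure D3:**
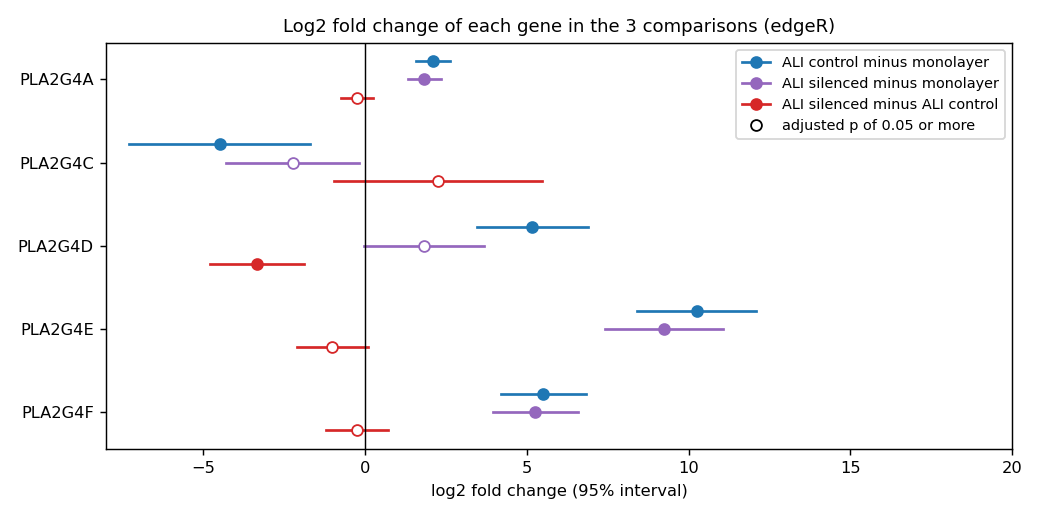
Log2 fold change of each gene in the 3 comparisons, with bars for the 95% interval; open circles did not pass an adjusted p of 0.05 (edgeR). PLA2G4D is the 1 gene with a filled circle for ALI silenced minus ALI control, at -3.35.

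The level of PLA2G4D was also set against that of its neighbour in the same library, a ratio chosen after the values were seen. In ALI control libraries there were 5.08, 4.11 and 2.83 counts of PLA2G4D per 100 counts of PLA2G4E. In ALI silenced libraries there were 0.548, 0.925 and 0.894. All silenced libraries were below all controls, and control library 2 lay between the other controls on this scale. The mean log2 ratio was lower in silenced libraries (log2 difference -2.34, exact two-sided permutation p = 0.1, the smallest that 3 against 3 allows). As the ratio was chosen with its values known, this p is no separate support for the PLA2G4D call. For PLA2G4F there were 5.86, 8.61 and 6.31 counts per 100 of PLA2G4E in controls and 12.5, 12.6 and 7.49 in silenced libraries. These groups overlapped, with silenced library 3 below control library 2 (log2 difference 0.63, exact two-sided permutation p = 0.2).

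**Figure D4:**
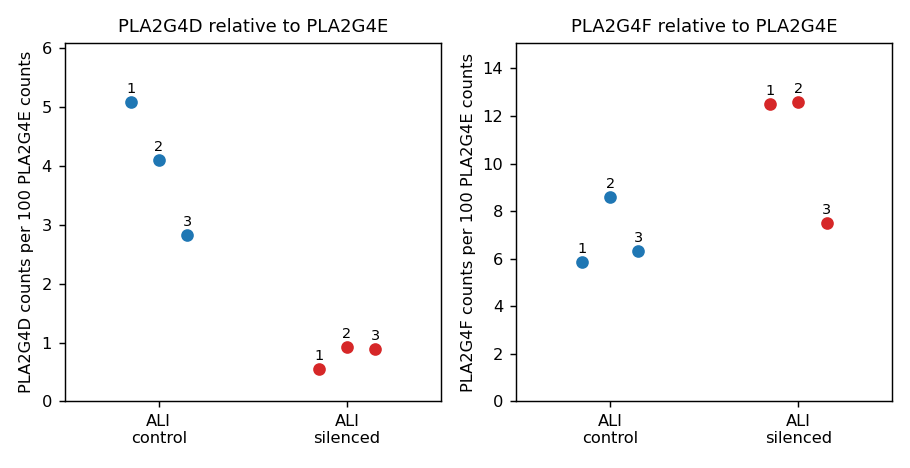
Counts of PLA2G4D (left) and PLA2G4F (right) per 100 counts of PLA2G4E in each ALI library, on linear axes from 0; numbers are library numbers. The 3 silenced libraries lie at 0.548 to 0.925 for PLA2G4D, below the controls at 2.83 to 5.08, while the groups overlap for PLA2G4F.

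Against the monolayers, the ALI silenced cells still had high levels of PLA2G4E, PLA2G4F and PLA2G4A. This comparison shares libraries with the other 2, and both silencing and differentiation differ in it. In it 15.8% of genes were called higher and 15.9% lower. The log2 fold change was 9.24 for PLA2G4E (adjusted p = 1.70e-05), 5.26 for PLA2G4F (adjusted p = 8.44e-05) and 1.83 for PLA2G4A (adjusted p = 0.000169), by edgeR's quasi-likelihood test. PLA2G4D had a log2 fold change of 1.82 and did not pass (95% interval -0.04 to 3.68, adjusted p = 0.0933), although its 3 silenced libraries, at 0.561 to 0.937 CPM, were above the monolayers, at 0.101 to 0.319 CPM. It passed in 2 of 19 alternatives, without ALI control library 2 (log2 fold change 1.82, adjusted p = 0.0235) and with both ALI libraries numbered 2 left out (1.75, adjusted p = 0.0484). PLA2G4C had a log2 fold change of -2.23 (adjusted p = 0.0670) and its groups did not overlap. In the shares of summed RPKM, PLA2G4D held 0.494, 0.788 and 0.822% in ALI silenced libraries, against 5.31, 2.87 and 2.99% in ALI control.

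Across the 9 libraries, PLA2G4E and PLA2G4F had the closest profiles of any pair of members (Pearson r of log2 CPM 0.99, and 0.84 within the 6 ALI libraries). PLA2G4D correlated with PLA2G4E at 0.78 over all 9 and at 0.78 over the 6. PLA2G4A correlated with PLA2G4E at 0.96 over the 9 but at -0.38 over the 6, so that the relation over 9 was that between monolayer and ALI groups. These are descriptions over libraries that share their groups and culture.

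Among 11134 genes, those with profiles most like each member over the 9 libraries were found by Pearson correlation of log2 CPM. These correlations span the step between monolayer and ALI groups, and likeness within the ALI libraries alone was not examined. For PLA2G4D they were FETUB (r = 0.98), KRT10, THEM5, ABP1 and CYP4B1 (r = 0.96). KRT10 was at 3386 ± 2222 CPM in ALI control, 154 ± 72.2 in ALI silenced and 16.9 ± 2.86 in monolayer libraries. For PLA2G4E they were PGLYRP3, CLIC3, KLK13, IVL and IL36G (r from 0.99 to 1.00 after rounding), and IVL was at 831 ± 365, 385 ± 147 and 2.29 ± 0.343 CPM. For PLA2G4F they were SOWAHB, SULT2B1, PPL, SPATA5L1 and EPS8L1, for PLA2G4A they were CA2, CARD18, SCEL, CSTA and ADH7, and for PLA2G4C they were CCNG2, GBE1, ANKRD6, CCDC71L and OPN3.

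Other phospholipases A2 were given as a list of 26 genes, of which 14 could be tested. In ALI control against monolayer, 6 were called higher and 3 lower, with a median log2 fold change of 0.39, against 0.03 over all genes tested. Of all genes tested, 20.3% were called higher and 20.2% lower. PLA2G3, a secreted enzyme, was at 15.9, 16.0 and 14.2 CPM in ALI control and at 0 counts in every monolayer, at least 171-fold higher against a floor of 3 counts over the group. PLA2G2F, a secreted enzyme of the epidermis, was at 11.8 ± 4.29 CPM and also at 0 counts in monolayers, at least 131-fold higher. PNPLA1, which makes acylceramides of the skin barrier, was at 2.25 CPM against 0 counts, at least 25.02-fold higher. PLA2G3, PLA2G2F and PNPLA1 were thus tested only through ALI groups, and a lower call was hardly possible for them. The number of the list called higher is therefore not a measure of how often such genes change. PNPLA6, a lysophospholipase, was lower (log2 fold change -1.87, adjusted p = 0.00640, edgeR quasi-likelihood test). Over the alternatives the list had 5 to 8 higher and 2 to 6 lower. Under silencing, 0.703% of all genes tested were called lower. PLA2G3 was the 1 gene of the list that passed, and without both ALI libraries numbered 2 there were 3. It was at 1.40, 2.27 and 1.29 CPM in ALI silenced libraries, all below the controls, and fell by 3.19 on the log2 scale (adjusted p = 0.00583 and SE 0.33). The 20 alternatives all called PLA2G3, and their adjusted p reached 0.0477. PLA2G2F was at 5.92 ± 1.85 CPM in silenced libraries and did not pass (log2 fold change -0.99, adjusted p = 0.448).

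The prostanoid list holds enzymes that turn arachidonic acid into prostaglandins, those that break them down, and their receptors, and 14 of its 25 genes were tested. In ALI control against monolayer, 4 were higher and 3 lower (median log2 fold change 0.15), against 20.3% and 20.2% of all genes. PTGS2, the inducible cyclooxygenase, lies 148.5 kb from PLA2G4A and was at 27.9, 26.5 and 26.8 CPM in monolayers and 14.9, 3.91 and 5.08 CPM in ALI control. It was thus lower where PLA2G4A was higher (log2 fold change -1.78, SE 0.47, adjusted p = 0.0129, edgeR quasi-likelihood test). In ALI silenced libraries PTGS2 was at 27.8, 14.4 and 14.98 CPM, overlapping the controls (log2 fold change 1.27, SE 0.46, adjusted p = 0.352). PTGES, a prostaglandin E synthase, was higher in ALI control (24.4 ± 4.53 against 2.98 ± 2.82 CPM, adjusted p = 0.00189). HPGD, which inactivates prostaglandins, was at 108 ± 56.6 against 0.211 ± 0.283 CPM (adjusted p = 0.000124), and PTGS1 did not pass (log2 fold change 0.81, adjusted p = 0.0942). HPGD was below the low-count cutoff in every monolayer, so it was tested only through ALI groups and could hardly be called lower. Under silencing, the receptor gene PTGER3 was the 1 gene called, against 0.703% lower of all genes. It was at 8.97, 26.5 and 4.02 CPM in ALI control and at 0.280, 0.137 and 0.468 CPM in ALI silenced libraries, with no overlap (log2 fold change -5.51, SE 0.86, adjusted p = 0.0316). PTGER3 had 0 counts in monolayers and was below the low-count cutoff of 1.04 CPM in silenced libraries. It was thus tested only through ALI control, and a call in the other direction was hardly possible. The PTGER3 call was lost in 5 of 20 alternatives: without ALI control 1 (adjusted p = 0.0853), without silenced library 1 (0.149), 2 (0.0625) or 3 (0.127), and on log2(RPKM + 1) (0.0860). In the 4 fits with a library left out, the log2 fold change was still between -5.94 and -5.12.

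Of 17 lipoxygenase and leukotriene genes, 8 were tested. Of these, 6 were higher and 1 lower in ALI control against monolayer (median log2 fold change 1.72), against 20.3% and 20.2% of all genes. There were 2 lower without ALI control 2, silenced 1, silenced 2, or both ALI libraries numbered 2. Over all 20 alternatives there were 4 to 6 higher and 1 to 2 lower. ALOX12B, a lipoxygenase of the epidermal barrier, was at 86.7, 28.3 and 95.4 CPM in ALI control and 0.289 ± 0.134 CPM in monolayers (log2 fold change 7.94, adjusted p = 3.70e-05, edgeR quasi-likelihood test). ALOXE3, which acts after it, had a log2 fold change of 2.32 (adjusted p = 0.000583), and ALOX15B one of 3.23 (adjusted p = 0.000493). ALOX12B and ALOX15B were below the low-count cutoff in every monolayer. They were tested only through ALI groups, and a lower call was hardly possible for them. None of the 8 passed under silencing in the main edgeR fit, and without both ALI libraries numbered 2 there were 2 called lower. With the DESeq2 Wald test, 2 of 13 tested were also called lower. On leaving out 1 library, the adjusted p was as low as 0.0146 for ALOX12B and 0.00955 for ALOXE3 (edgeR quasi-likelihood test). ALOX12B was at 11.7, 26.4 and 8.66 CPM in ALI silenced libraries, all below the controls (log2 fold change -2.16, SE 0.51, adjusted p = 0.0949), and passed in 4 of 20 alternatives. ALOXE3 was at 17.4, 39.2 and 17.3 CPM in ALI silenced and 56.1, 58.5 and 58.6 CPM in ALI control libraries, without overlap. Its log2 fold change was -1.22 (adjusted p = 0.143, edgeR quasi-likelihood test), and it passed in 3 of 20 alternatives. ALOX15 had 1 count in ALI control, 0 in ALI silenced and 2 in monolayer libraries.

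The N-acylethanolamine list holds genes around the products of the epsilon enzyme, and 13 of 21 were tested. In ALI control against monolayer, 4 were higher and 2 lower (median log2 fold change 0.46), against 20.3% and 20.2% of all genes. Without ALI control 1, monolayer 1 or monolayer 3 there were 3 higher and 1 lower. Without both ALI libraries numbered 2 there were 5 and 4. Over all 20 alternatives there were 3 to 6 higher and 1 to 4 lower. GDPD3, a lysophospholipase D, was at 49.1 CPM against 0.393 CPM (log2 fold change 6.86). It was below the low-count cutoff in every monolayer, was tested only through ALI groups and could hardly be called lower. MGLL and NAAA, which hydrolyse endocannabinoids and N-acylethanolamines, had log2 fold changes of 1.63 and 1.07. NAPEPLD, which cleaves the lipids that the epsilon enzyme makes, was at 13.0 CPM in ALI control, 13.4 in ALI silenced and 15.01 in monolayer libraries (log2 fold change -0.22 in ALI control against monolayer, adjusted p = 0.521, edgeR quasi-likelihood test). Under silencing, no gene of this list was called.

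Of 26 genes for reacylation, hydrolysis and signalling of lysophospholipids, 21 were tested. In ALI control against monolayer, 3 were higher and 7 lower (median log2 fold change -0.39), against 20.3% and 20.2% of all genes. ACSL1, which activates fatty acids, was higher (250.2 ± 16.8 against 19.8 ± 5.68 CPM). The acyltransferase genes LPCAT1 and MBOAT7 were lower, with log2 fold changes of -1.99 and -1.96, and so was the receptor gene LPAR1, with -1.92. All 18 kinases and binding partners of the alpha enzyme were tested. Of these, 3 were higher and 4 lower (median -0.17), against the same shares of all genes. Without monolayer 2 or monolayer 3 there were 1 higher and 3 lower, and without both ALI libraries numbered 2 there were 6 and 7. Over all 20 alternatives there were 1 to 6 higher and 3 to 7 lower. ANXA1, an annexin reported to inhibit the alpha enzyme, was at 3746 CPM in ALI control, 4452 in ALI silenced and 653 in monolayer libraries (log2 fold change 2.52 in ALI control against monolayer, adjusted p = 6.71e-05, edgeR quasi-likelihood test). VIM, the intermediate filament protein vimentin, was lower in ALI control (log2 fold change -4.11, adjusted p = 0.000252). Neither list had a gene called under silencing, and without both ALI libraries numbered 2 the kinase and partner list had 1 lower.

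The genes that flank the chromosome 15 members on either side, EHD4 and VPS39, were not called in ALI control against monolayer. Within 200 kb of a member, 26 other genes or rows were listed and 13 tested. In ALI control against monolayer, 3 of these were higher and 2 lower (median log2 fold change -0.51), against 20.3% and 20.2% of all genes. The 3 higher were TMEM87A and the overlapping PLA2G4B and JMJD7 rows, which may share reads and are not 2 independent calls, and the 2 lower were PTGS2 and MAPKBP1. EHD4, 9.0 kb from PLA2G4E, had a log2 fold change of -0.82 (adjusted p = 0.122, edgeR quasi-likelihood test). VPS39, 2.1 kb from PLA2G4F, had one of -0.19 (adjusted p = 0.593). These 2 were singled out after their values were seen. TMEM87A (log2 fold change 0.86, adjusted p = 0.0259) lost its call in 5 of 20 alternatives and MAPKBP1 (log2 fold change -1.11, adjusted p = 0.0377) in 7 of 20. The JMJD7 row lost its call in 1 of 20, without monolayer 2 (adjusted p = 0.0572). The counts were 1 higher and 1 lower without monolayer 2, and 2 and 1 without monolayer 3. They were 3 and 1 without ALI control 2, silenced 3 or monolayer 1, and 3 and 4 without both ALI libraries numbered 2. Over all 20 alternatives they were 1 to 3 higher and 1 to 4 lower. None of the 13 was called under silencing, and 1 was higher without both ALI libraries numbered 2.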

How the data were processed

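RNA sequencing libraries of 3 groups of 3 were used, grouped and numbered by the labels; the names of the deposited tables number some ALI libraries in another way. They were stranded and made from polyA RNA, per the labels' protocols. Tools named in the submitters' processing notes are STAR 2.4.2a, MACS2 and Bowtie, with genome build hg19 and with no role given. How reads were counted, and whether by strand, is not given in the sources used here. Reads of overlapping antisense genes may therefore be mixed. The deposited tables hold 29800 transcript rows each, with a whole-number read count that is not normalized and the authors' RPKM value per row. Counts of rows with the same symbol and chromosome were summed to 24672 genes; 511 rows name several genes and held 0.411 to 0.554% of a library's counts. RPKM was used per library as deposited, to compare genes per length.

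In R 4.3.3, edgeR 4.0.16 (TMM, filterByExpr on the 3 groups, robust quasi-likelihood fit of all 9 libraries, 6 residual degrees of freedom) tested 12806 genes in 3 contrasts, with Benjamini-Hochberg adjustment within a contrast and a threshold of 0.05. Standard errors come from the F statistic, and 95% intervals use 6 degrees of freedom. Correlations use log2 CPM with a prior count of 2. The fit was run on simulated counts with the same spread for every gene and library. The spread between the real replicates was uneven, so this checks the procedure and does not measure error rates in these data. Counts of 0 are set against a floor of 3 counts, and intervals of count ratios cover counting error only. Precision was limited by 3 libraries per group and, for PLA2G4C in ALI and for PLA2G4D, PLA2G4E and PLA2G4F in monolayers, by few counts. No 2 replicates agreed within sampling noise; monolayer libraries 2 and 3 differed least (chi-square per degree of freedom 1.86).

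The 5 members and the gene lists were chosen with earlier results of these data known. Named genes are the members, PLA2G4B rows, 12 chosen genes (SPINK7, PTGS2, PTGS1, PTGES, HPGD, ALOX12B, ALOX15, ALOX15B, ANXA1, NAPEPLD, PLA2G2F, PLA2G3), up to 4 genes called per list by largest change, and the 5 genes most like each member among those with at least 5 CPM in a group. The 20 alternatives were DESeq2 size factors, the DESeq2 1.42.0 Wald test, limma-voom (limma 3.58.1), no filter, a stricter filter, a replicate block, only the 6 libraries of the groups compared, log2(RPKM + 1) and log2(RPKM + 0.1) with limma, each of the 9 libraries left out, and libraries 2 of both ALI groups left out. One with monolayer libraries 2 and 3 summed, and the ratios between members, were added after seeing the data.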

Additional observations from a re-analysis of the deposited data

How the results depend on the processing

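The 5 members kept their direction and call in ALI control against monolayer in all 20 alternatives (adjusted p at most 0.000767 for PLA2G4A, 0.0409 for PLA2G4C, 0.00526 for PLA2G4D, 0.000212 for PLA2G4E and 0.00106 for PLA2G4F). Under silencing, 1 member was called lower. The count was 0 with limma-voom, with the 6 ALI libraries alone, on log2(RPKM + 1), on log2(RPKM + 0.1) and with monolayer libraries 2 and 3 summed, and 2 without both ALI libraries numbered 2; leaving out 1 library gave 0 to 2. The adjusted p of PLA2G4D was 0.0789, 0.0867, 0.118, 0.0638 and 0.0529 in the first 5 of these. The cause was not tested. PLA2G4C turned to -0.17 under silencing without both ALI libraries numbered 2; its value otherwise ran up to 5.24.

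Over all genes, 29 were called higher and 90 lower under silencing. Higher calls numbered 135 with DESeq2, 45 without a filter, 51 with the replicate block, 5 with the 6 ALI libraries alone, 52 on log2(RPKM + 1), 46 on log2(RPKM + 0.1), 280 without both libraries numbered 2 and 9 with monolayers summed, and 3 to 92 on leaving out 1 library. Lower calls numbered 280 with DESeq2, 54 with the 6 ALI libraries alone and 428 without both libraries numbered 2, and 25 to 147 on leaving out 1 library. For ALI silenced against monolayer, 0 members were called lower, and 1 (PLA2G4C) with limma-voom, on log2(RPKM + 1), on log2(RPKM + 0.1) and without both libraries numbered 2, or 0 to 1 on leaving out 1 library. The 2023 higher and 2035 lower calls there became 3372 and 3087 without both libraries numbered 2, and the higher ones 1310 with monolayers summed; leaving out 1 library gave 3 to 4 members higher, and over all genes 1284 to 2976 and 1276 to 2767.

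With the replicate number as a block, PLA2G4D had a log2 fold change of -3.07 under silencing (adjusted p = 0.0289, edgeR quasi-likelihood test), and no member's call changed. The block uses the labels' numbers, and the names of the ALI tables number some libraries in another way. Whether the numbers pair the libraries is not known, and deviations within groups of 3 cannot settle it. Same-numbered ALI libraries correlated at 0.50, 0.58 and -0.0063 in their deviations from group means. Not every library correlated best with its own number. With CPM per total counts in place of TMM scaling, every group mean of the 5 members moved by less than 1 SD. Each member has 1 row, so showing rows separately gives the same levels.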
